A study of Mus musculus with 9 samples.

Results

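The response of T cells to medium conditioned by other cells, of either kind, was measured by setting the 6 samples kept in a conditioned medium as 1 group against the 3 samples kept in unconditioned medium. These are all 9 samples of the series. Splenic CD3+ T cells of wild-type C57BL/6 mice, taken by removing the other cell types, were kept for 4 h in unconditioned medium, in adipocyte conditioned medium or in stromal cell conditioned medium. Mice 1, 2 and 3 each gave 1 sample per medium, so the 6 conditioned samples come from 3 animals and are 3 pairs. The labels name no antigen or receptor stimulus and do not say which adipocytes or stromal cells conditioned the media, nor for how long. The question was which genes change by a like amount whichever cells conditioned the medium.

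Conditioned medium carries what the conditioning cells secreted, such as cytokines, lipids and metabolites, and lacks what they used up. T cells read secreted cytokines through JAK kinases and STAT transcription factors, whose targets include their own brakes, the SOCS genes. Resting T cells hold a set of genes for quiescence and for recirculation, among them the sphingosine phosphate receptor for leaving lymph nodes. Cells make cholesterol through a chain of enzymes whose genes are driven together by the factor SREBP2 when membrane sterol is low.

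Values are normalized counts, the authors' read counts divided by a size factor per sample. The table lists 2889 genes, all of them in the authors' deposited table of changed genes for 1 or both media, and 2868 with a mean of at least 1 were tested. The smallest change in the authors' deposited tables was 0.78 (adipocyte) and 0.85 (stromal) on the log2 scale, so genes with a small change in both media are not listed. Every share below is a share of genes selected on these samples. Reads on the listed genes came to 6522742 to 13758643 per sample. Replicates of a group differed by more than sampling noise, so no sample was a repeat of another. Where the text gives a change, it is a difference of log2(value + 1) from limma, conditioned minus unconditioned, with Benjamini-Hochberg adjusted p over all tested genes. In these bulk samples, fewer cells of a type and less RNA per cell cannot be told apart. Cd3e, which encodes a chain of the T cell receptor complex, stood at 34061, 36079 and 36835 without conditioning, for mice 1, 2 and 3 in turn, so the labelled cell type had its defining marker.

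Pooled over both media, 2795 of the 2868 tested genes (97.5%) passed an adjusted p of 0.05, 984 higher (34.3%) and 1811 lower (63.1%) in conditioned medium. The genes had been selected for change in these samples, so nothing is read from this share. With the factors of a median of ratios over the listed genes in place of the deposited ones, the split was 1087 higher and 811 lower. A pooled change can come from 1 medium alone, so a gene was counted as changing similarly only if it passed 3 conditions. Its pooled change passed the threshold, the 95% interval of adipocyte minus stromal medium lay within 2-fold either way, and the larger log2 change was at most 2 times the smaller with the same sign. The difference between the media does not use the unconditioned samples, which the changes in the 2 media share. By this rule 523 genes (18.2%) changed similarly, 147 higher (5.13%) and 376 lower (13.1%).

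**Figure D1:**
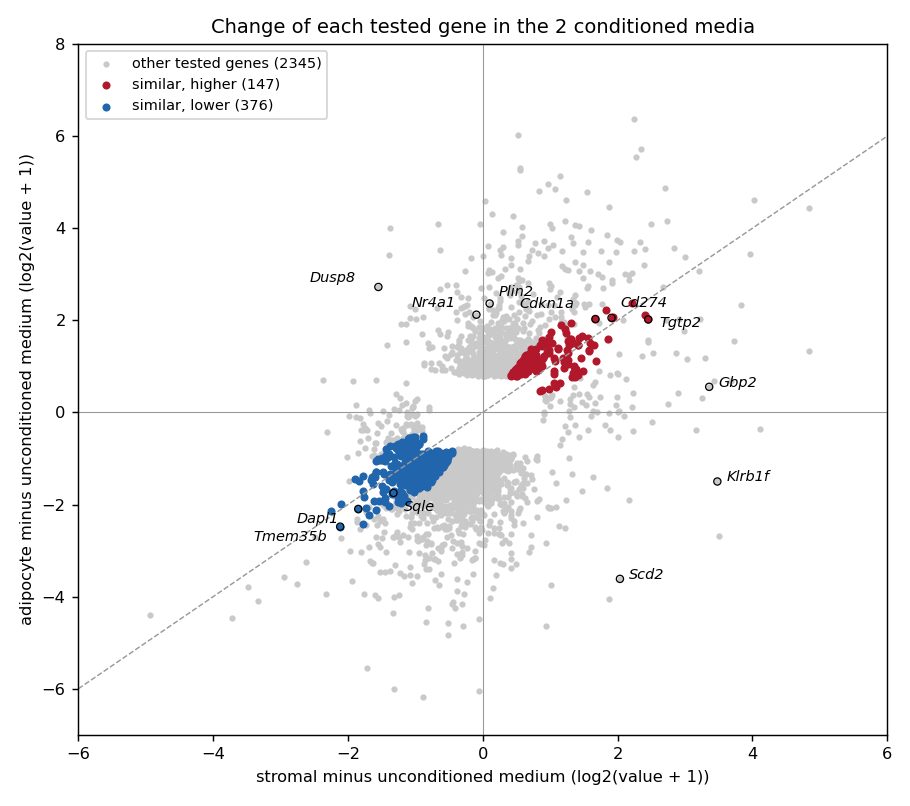
Change of each of the 2868 tested genes in stromal medium (horizontal axis) and adipocyte medium (vertical axis), both against the same 3 unconditioned samples, as differences of log2(value + 1), with equal change on the dashed line. The 147 similar genes that were higher (red) and the 376 that were lower (blue) lie near that line and away from 0, where the table holds few genes.

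The pooled change of the 147 higher genes ran from 0.61 to 2.29 on the log2 scale with a median of 0.98, and that of the 376 lower genes from -2.30 to -0.65 with a median of -1.03. At least a 2-fold change was seen for 71 of the former and 211 of the latter. Similar is not equal: the difference between the media itself passed the threshold for 332 of the 523 genes, with the larger change in adipocyte medium for 261 and in stromal medium for 71. Over all tested genes 2609 (91%) differed between the media, 968 higher (33.8%) and 1641 lower (57.2%) in adipocyte medium. Taken alone against unconditioned medium, 97.2% of tested genes passed in adipocyte and 57.7% in stromal medium. In 18.9% all 6 conditioned samples were above all 3 unconditioned ones, and in 39.9% below, as was so in 1 of these ways for each of the 523 similar genes. Of the genes that differed between the media, passed the pooled test and moved the same way in both media without being similar, 1558 had the larger change in adipocyte and 127 in stromal medium. A further 591 genes that differed between the media had changes of opposite sign. The pooled change held 46.2% of the sum of squares between the groups over all tested genes, and the difference between media held the rest.

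Likeness between the media depends on their scaling against each other. Rescaling by the median of ratios moved the median pooled change by 0.64 and the median adipocyte minus stromal difference by 0.57 on the log2 scale, and TMM moved them by 0.30 and 0.31. A scaling over genes that were selected for changing brings their median towards 0 by construction, and no scaling was taken as the true one. Under all 3 scalings 181 genes stayed similar in the same direction, 38 higher (1.32% of tested genes) and 143 lower (4.99%). These are called stable to scaling below.

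**Figure D2:**
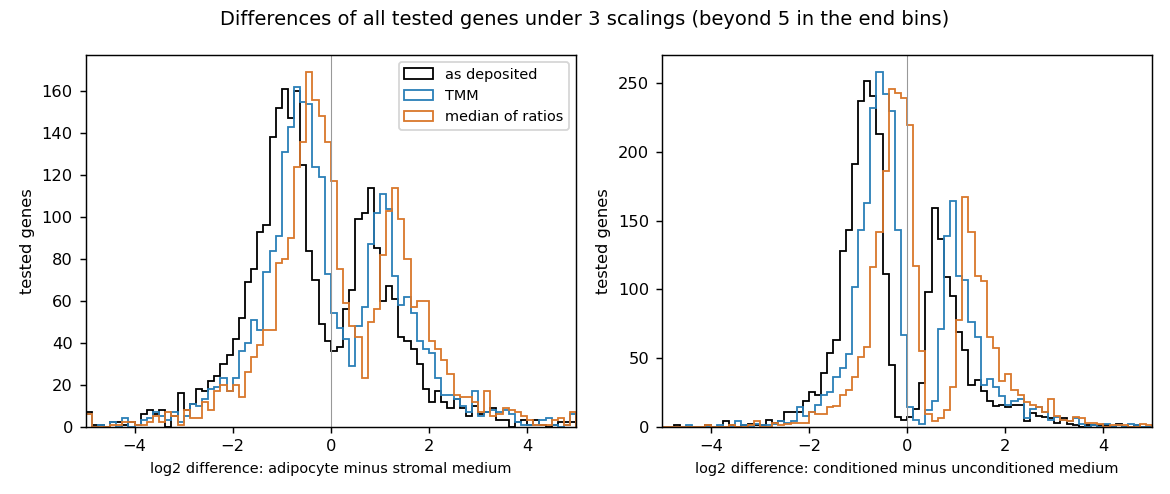
Number of tested genes by adipocyte minus stromal difference (left) and by pooled change (right) on the log2 scale, under the deposited scaling (black), TMM (blue) and the median of ratios (orange). The median difference between media went from -0.60 to -0.30 and -0.03, and the gap near a pooled change of 0 marks genes that the authors' selection leaves out.

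Genes of cytokine signalling through STAT factors were higher in the pooled comparison, mostly by unequal amounts in the 2 media. Stat5a (ENSMUSG00000004043), a transcription factor gene of interleukin signals, was at 18602, 15629 and 14104 normalized counts without conditioning, in the order of mice 1, 2 and 3, as in all such lists. It stood at 42844, 44408 and 33032 in stromal medium and 53066, 48336 and 43074 in adipocyte medium. All 6 conditioned samples were above all 3 unconditioned ones, and the ranges of the 2 media met. The pooled change was 1.45 (SE 0.12, limma adjusted p = 4.37e-07), with 1.31 in stromal and 1.58 in adipocyte medium, and the interval of their difference was -0.02 to 0.57. Its neighbour Stat3 (ENSMUSG00000004040), the factor of interleukin 6 type signals, shares exon sequence with it on the opposite strand, so reads of the shared stretch cannot be assigned. Stat3 went from 31137, 28142 and 27106 to 58232, 51476 and 49436 in stromal and 94259.9, 75277 and 89166 in adipocyte medium. It was higher in both media, and more so in adipocyte medium, by a difference of 0.70 (0.46 to 0.94).

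Socs3 (ENSMUSG00000053113), which encodes a feedback inhibitor of STAT3 signalling, was at 3626, 3331 and 3501 in unconditioned, 5913, 6747 and 6667 in stromal and 9059, 6313 and 8411 in adipocyte medium. The highest stromal sample exceeded the lowest adipocyte sample, and the pooled change was 1.03 (SE 0.10, limma adjusted p = 1.67e-06). Pim2, for a survival kinase that cytokines induce, rose in the other order, from 8744, 8298 and 7911 to 28635, 21713 and 29923 in stromal and 20186, 17263 and 16439.8 in adipocyte medium, and was stable to scaling. Its relative Pim1 had a pooled change of 0.86, 0.59 in stromal and 1.13 in adipocyte medium. Il4ra, the receptor chain for interleukins 4 and 13, rose by 1.13 (stromal 0.96, adipocyte 1.30). Of 30 genes on a list of STAT targets and feedback genes 19 were tested, and all 19 were higher in the pooled comparison, under the deposited and the median of ratios scaling, against 34.3% of all tested genes. Their median was 1.03, that of all tested genes -0.65. Of the 19, 6 changed similarly, against 5.13% of all tested genes that were similar and higher. Only 1 of the 6, Pim2, was stable to scaling, against 1.32% of all tested genes that were higher and stable. Under the median of ratios the difference between media was 1.27 for Stat3 and 1.11 for Pim1. Among the listed genes that were not similar, Il10 was at 2.32 in adipocyte and -0.26 in stromal medium.

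**Figure D3:**
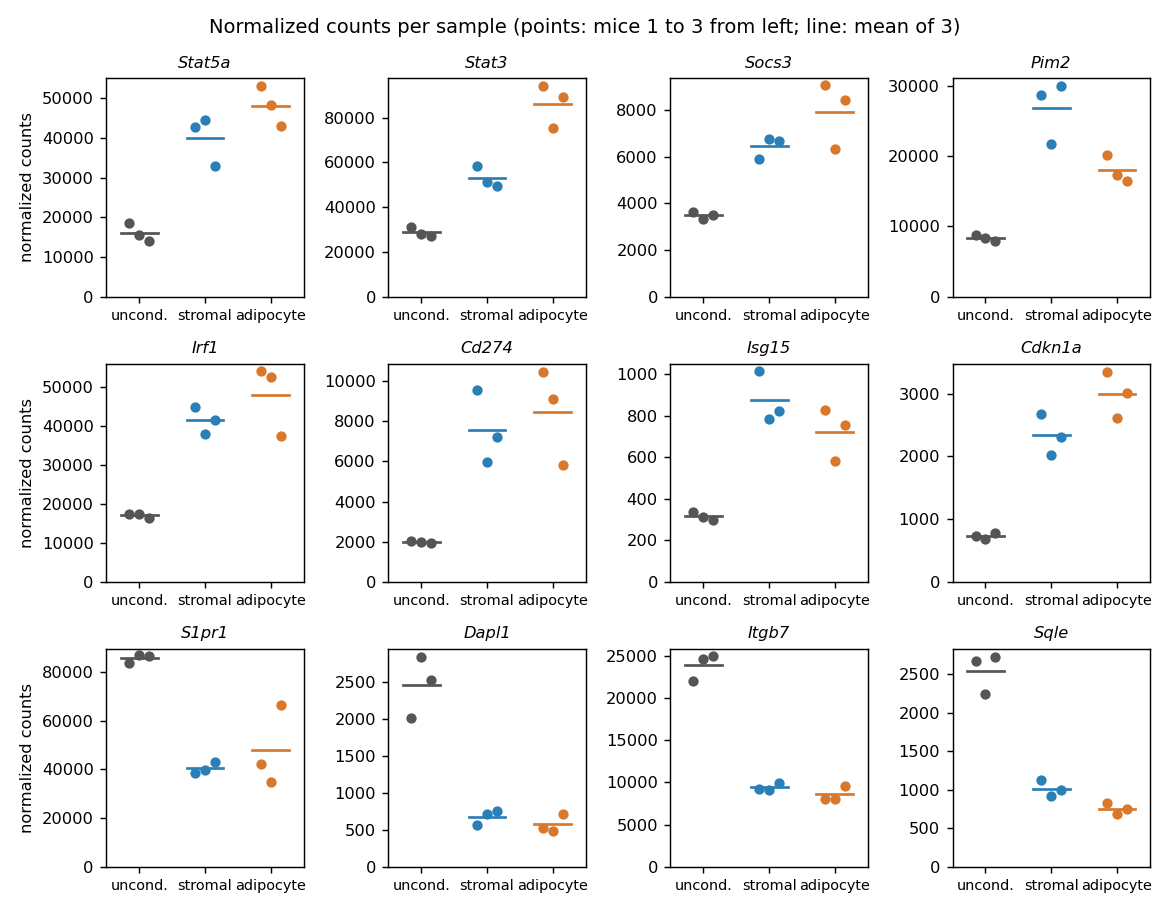
Normalized counts of 12 genes with similar change in each of the 9 samples (points, mice 1 to 3 from left to right in each medium) with the mean of each medium (line), on axes that start at 0. In each panel the 6 conditioned samples lie on 1 side of the 3 unconditioned samples, as for Stat5a at 16112 unconditioned against means of 40095 and 48159.

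Several interferon-inducible genes rose by like amounts in both media. Cd274 (ENSMUSG00000016496), encoding the checkpoint ligand PD-L1, was at 2034, 1968 and 1939 in unconditioned, 9570.3, 5962 and 7216 in stromal and 10457, 9105 and 5837 in adipocyte medium. The conditioned samples spread widely within each medium, and the media overlapped. Its pooled change was 1.98 (SE 0.17, limma adjusted p = 6.19e-07), with a difference of 0.14 (-0.28 to 0.57). Irf1, a transcription factor gene of interferon responses, went from 17375, 17512 and 16388 to 44975, 37867 and 41539 in stromal and 54176, 52652 and 37505 in adipocyte medium. Tgtp2, for an interferon-inducible GTPase with a near-identical neighbour to which its reads could be split, rose by 2.24 (stromal 2.45, adipocyte 2.02). Irf8, of the same factor family, rose by 1.18. Both Tgtp2 and Irf8 were stable to scaling, whereas Irf1 and Cd274 were not: rescaling by the median of ratios raised their pooled changes to 2.02 and 2.62 and took the interval of the difference past 2-fold.

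Isg15 (ENSMUSG00000035692), a ubiquitin-like modifier gene of the type I interferon response, stood at 336, 313 and 299.6 in unconditioned, 1016, 782 and 824 in stromal and 827, 579.6 and 753 in adipocyte medium. It was higher in every conditioned sample (pooled change 1.31, SE 0.13, limma adjusted p = 1.59e-06) and stable to scaling. The antiviral genes Oasl2 and Rsad2 rose by 1.19 and 1.23, Oasl2 more in stromal and Rsad2 more in adipocyte medium. Of 27 tested interferon gamma response genes, 26 were higher and 1 lower in the pooled comparison, and 5 changed similarly. The share that was higher over all tested genes was 34.3%, and the share similar and higher 5.13%. The genes that were not similar differed in how far adipocyte medium took part. The interferon-inducible GTPase gene Iigp1 was at 2.98 in stromal and 1.77 in adipocyte medium, and the serpin gene Serpina3f at 2.84 and 3.57. Gbp2, for a guanylate binding protein, was at 6924, 5869 and 5057 in unconditioned and 100207, 39308 and 56331 in stromal medium, but 11136, 13495 and 4343 in adipocyte medium, where 1 sample was below all unconditioned ones. Of 14 type I interferon genes 7 were higher and 5 lower, with 3 similar and higher, against 34.3%, 63.1% and 5.13% of all tested genes.

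The promoters of these genes were read from a RefSeq table of the build GRCm38.p6, holding 300 bases around each start (250 before, 50 after). It matched 124 of the 147 similar higher genes. Stretches upstream of the start are shown for STAT and interferon genes because cytokine and interferon signals act through such letters. Capitals mark a match to TTCNNNGAA (bound by STAT factors) or to the consensus of the interferon-stimulated response element (ISRE), on either strand.
Socs3, STAT, chr11:117969496-117969536, minus strand: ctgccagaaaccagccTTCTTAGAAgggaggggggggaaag
Irf1, STAT, chr11:53769908-53769948, plus strand: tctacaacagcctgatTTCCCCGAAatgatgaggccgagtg
Tgtp2, STAT, chr11:49064269-49064309, minus strand: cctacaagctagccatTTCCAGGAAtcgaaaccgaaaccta
Isg15, ISRE, chr4:156200871-156200912, minus strand: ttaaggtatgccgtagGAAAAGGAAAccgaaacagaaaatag
Rsad2, ISRE, chr12:26456547-26456588, minus strand: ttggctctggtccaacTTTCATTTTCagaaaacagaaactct
Gbp2, ISRE, chr3:142620588-142620629, plus strand: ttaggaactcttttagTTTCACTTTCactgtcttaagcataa
The STAT letters stood in 8.33% of 156 promoters of similar higher genes, 7.51% of similar lower genes, 7.46% of all tested genes and 8.3% of the whole table. The response element letters stood in 3.85%, 3.89%, 3.92% and 3.44%. In this window the shares are near those of all tested genes. Gbp2, which differed between the media, and Isg15 and Rsad2, which were similar under the deposited scaling, all carry a match to the response element. Rsad2 was not stable to scaling, with a difference of 1.08 under the median of ratios. What part the element had in these changes was not tested. A match is not a site in use.

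For other letters searched in the same way, the shares in similar higher genes were mostly above those of all tested genes. The ATF4 letters TGATGNAA stood in 5.13% of the promoters of similar higher genes and 2.61% of those of all tested genes, and TGACGTNA (CRE) in 6.41% and 4.44%. For CACGTG (E-box) the shares were 11.5% and 8.94%, for TGANTCA (AP-1) 7.05% and 5.88%, and for the NF-kB consensus 14.1% and 11.2%. GGGCGG (GC box) stood in 66% and 58.4%, and the heat shock element consensus in 0 of 156 and 0.482%. In similar lower genes the shares were 2.07% (ATF4), 3.11% (CRE), 7.51% (E-box), 4.92% (AP-1), 11.7% (NF-kB) and 58.5% (GC box). Over the whole table they were 3.97%, 2.93%, 7.15%, 7.81%, 8.46% and 35.7% in that order. The AP-1 share of similar higher genes was thus below that of the whole table. At the median, promoters of similar higher genes also held more CG letters (CpG) than those of all tested genes. The shares were not adjusted for this. For similar higher genes they are descriptions of counts from 8 (ATF4) to 103 (GC box) promoters, heat shock aside.

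Among genes above the lowest 25% in mean level, the largest similar rises after these were in genes of varied function. Cdkn1a (ENSMUSG00000023067), encoding the cell cycle inhibitor p21, went from 723, 688 and 778 to 2676, 2028 and 2307 in stromal and 3347, 2615 and 3005 in adipocyte medium (pooled change 1.85, SE 0.10, limma adjusted p = 7.11e-08). Every conditioned sample was above 2 times the highest unconditioned one. Mxd1, a partner of MAX that opposes MYC, rose by 1.63, from 6375, 5749.7 and 5216 to 14555, 14849.8 and 13387 in stromal and 25775, 16771 and 25579.5 in adipocyte medium. Rbm15, for an RNA-binding subunit of the m6A writer complex, had the smallest standard error of the named genes that were higher. It was at 1368, 1343 and 1381, then 3168, 3274 and 3074 in stromal and 4998, 4730.4 and 4660.2 in adipocyte medium, a pooled change of 1.51 (SE 0.06).

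Neto2, for an auxiliary subunit of glutamate receptors, rose by 1.73, Rnf19b, for a ubiquitin ligase, by 1.47, and Srrt, a partner of the nuclear cap-binding complex, by 1.45. All 3 were stable to scaling. Neto2 stood at 1204, 901 and 758 in unconditioned, 3843, 3095 and 3300.1 in stromal and 3453, 2546 and 2593 in adipocyte medium, with the stromal and adipocyte samples overlapping. Nrip3, Adgrg5 (an adhesion G protein-coupled receptor gene) and Gpnmb (a transmembrane glycoprotein gene) rose by 2.02, 1.53 and 1.51. Nrip3 and Adgrg5 lay near the limit of likeness, with intervals of the difference of -0.21 to 0.99 and 0.55 to 0.95. Nrip3 was the least precise, at 163, 88.7 and 129 in unconditioned medium and from 290.2 to 644 over the conditioned samples.

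Chaperone genes were higher in the pooled comparison. All 10 tested genes of the heat shock and chaperone list, of 38, were higher, with a median of 0.83 against -0.65 over all tested genes, and 4 changed similarly. Over all tested genes 34.3% were higher and 5.13% similar and higher. Hspa5, the chaperone of the endoplasmic reticulum, went from 34268, 31356 and 32927 to 57372, 47062 and 54155 in stromal and 86478, 75845 and 76379 in adipocyte medium. Hsp90ab1 and Hspa4, cytosolic chaperone genes, rose by 0.97 and 0.70. The inducible genes Hspa1a and Hspa1b, near-identical copies, did not change similarly, at 3.71 and 3.68 in adipocyte against 0.90 and 0.77 in stromal medium. The 4 similar chaperone genes were not stable to scaling.

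In metabolism, single genes rose similarly. Mthfd2, an enzyme gene of mitochondrial folate metabolism, rose by 0.84 and was stable to scaling, from 2691, 2742 and 2880.1 to 6054, 6004 and 5275 in stromal and 4517, 4349 and 4028 in adipocyte medium. The lactate transporter gene Slc16a1 rose by 0.89, hexokinase gene Hk2 by 0.88, the fatty acid binding protein gene Fabp5 by 0.97 and ferritin light chain gene Ftl1 by 0.70. Cebpb, a bZIP factor gene of stress and inflammation, rose by 1.24, and the ribosome assembly gene Rrp12 by 0.78. Gadd45g and Errfi1, genes of stress and of feedback on growth factor receptors, rose by 1.16 and 1.07, and Bambi, a decoy receptor gene of the TGF-beta family, by 0.98. From Slc16a1 to Bambi, none of these genes was stable to scaling. Under the median of ratios their adipocyte minus stromal differences ran from 0.81 (Rrp12) to 1.18 (Cebpb). Of the 17 tested ATF4 targets and amino acid genes 11 were higher and 4 lower, and 2 similar and higher, against 34.3%, 63.1% and 5.13% of all tested genes.

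Several genes of resting and recirculating T cells fell by like amounts in both media. Of 34 on the list 15 were tested, 11 were lower and 4 higher in the pooled comparison, and 7 fell similarly, against 63.1% lower and 13.1% similar and lower of all tested genes. The 4 higher ones were Klf6, Tob1, Dusp10 and Igfbp4, of which Dusp10 was at 0.82 in stromal and 1.79 in adipocyte medium. Ly6c1 went opposite ways, at 0.80 and -2.26. Of the 7 similar falls only 1, Dapl1, was stable to scaling. Median of ratios scaling left 6 lower and 4 higher, and moved the median adipocyte minus stromal difference of the list from 0.15 to 0.72. The list median was -0.89 (-0.77 in stromal, -1.02 in adipocyte medium), that of all tested genes -0.65 (-0.17 and -1.03). Il4ra, Txnip, Idi1 and Il22 are named here after their values were seen.

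S1pr1, the receptor gene for leaving lymphoid organs, was at 83505, 86948 and 86469 in unconditioned, 38447, 39709 and 43227 in stromal and 42413, 34713 and 66509 in adipocyte medium. Adipocyte sample 3 stood apart from the other 5 conditioned samples, and still below the unconditioned ones. Dapl1 (ENSMUSG00000026989), a gene that marks naive T cells, showed 1 of the largest similar falls and was stable to scaling. It went from 2011, 2833 and 2525 to 563, 718 and 760.4 in stromal and 529, 488 and 710.3 in adipocyte medium (pooled change -1.97, SE 0.15, limma adjusted p = 2.51e-07). Txnip, a brake on glucose uptake, changed by -0.92, Atp1b1, a sodium pump subunit gene, by -1.01, and Nsg2 by -0.89. Txnip, Atp1b1 and Nsg2 were not stable to scaling, at -0.28, -0.37 and -0.25 under the median of ratios. Klf2, the factor that drives S1pr1, did not change similarly. It was at 52001, 54727 and 59129 in unconditioned, 27588, 25555 and 30596 in stromal and 52412, 45192 and 63858 in adipocyte medium, and the adipocyte samples overlapped the unconditioned ones. Under median of ratios scaling, S1pr1 had a pooled change of -0.35 that did not pass the threshold, and Klf2 was at 0.12, also short of it.

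Most cholesterol synthesis genes were lower in the pooled comparison, and 5 fell by like amounts. Of 11 tested, from a list of 34, 10 were lower and 1 higher, and 5 fell similarly, with a list median of -0.98 (-0.81 in stromal, -1.16 in adipocyte medium). Over all tested genes 63.1% were lower and 13.1% similar and lower, with medians of -0.17 and -1.03. The 1 higher gene was the fatty acid elongase gene Elovl6, at 0.41 in stromal and 1.42 in adipocyte medium. Sqle (ENSMUSG00000022351), which encodes squalene epoxidase, was at 2668, 2243 and 2730.2 in unconditioned, 1133, 916 and 999.8 in stromal and 824, 692 and 753 in adipocyte medium. Each stromal sample was above each adipocyte sample, and all were below the unconditioned ones (pooled change -1.54, SE 0.10, limma adjusted p = 1.48e-07). Hmgcs1, the synthase gene at the head of the pathway, fell by 0.95, from 7589, 6477 and 7335 to 4531, 3709 and 3847 in stromal and 3534, 3107 and 3555 in adipocyte medium. Idi1, for isopentenyl diphosphate isomerase, was at 1645, 1354 and 1604, then 913, 549 and 733 in stromal and 764, 749.7 and 574 in adipocyte medium, with overlapping media (difference -0.05, -0.43 to 0.33).

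Cyp51, for the lanosterol demethylase, fell by 0.98 and, like Sqle, was stable to scaling, though its exons overlap those of Akap9 on the opposite strand. The desaturase gene Scd2 went opposite ways, at 3589, 2995 and 2857 in unconditioned, 13548, 11416 and 13661 in stromal and 401, 242 and 170.0 in adipocyte medium. Rescaling by the median of ratios left 7 of the 11 lower and 1 higher, and moved the list median to -0.34.

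**Figure D4:**
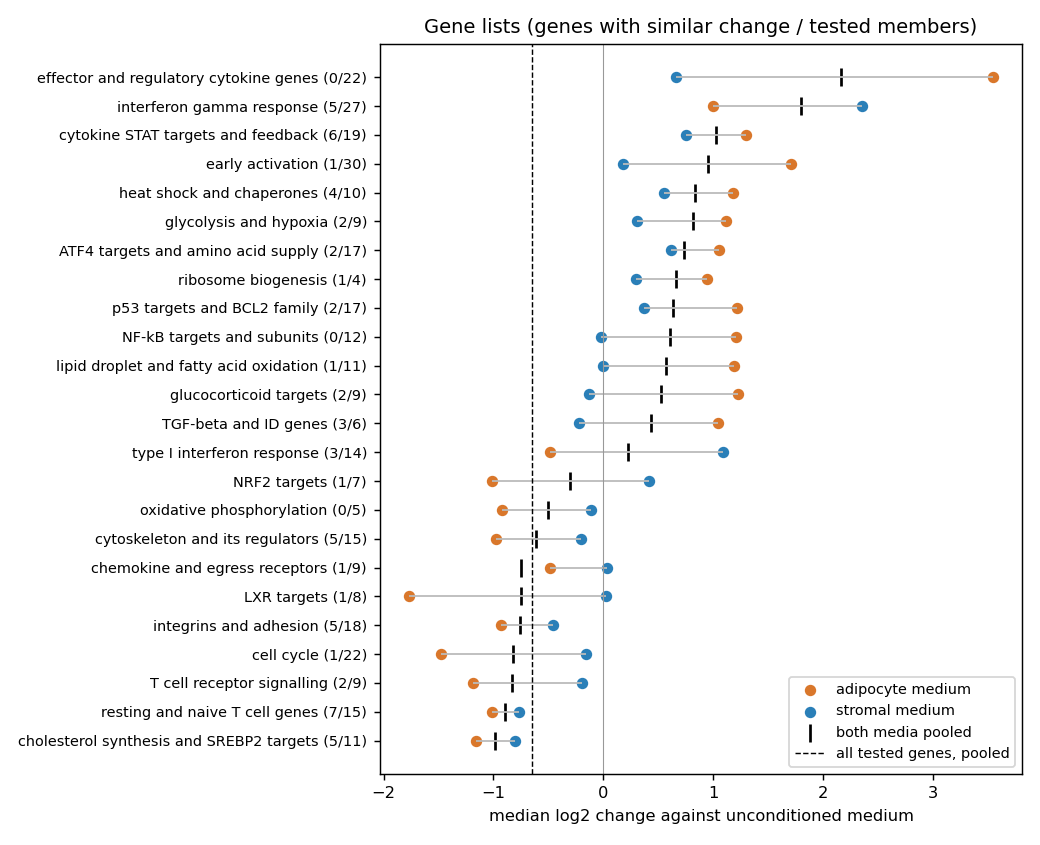
Median log2 change of the tested members of each gene list in adipocyte (orange) and stromal medium (blue) and in both pooled (black tick), with the median of all tested genes as a dashed line at -0.65. Numbers in brackets give genes with similar change over members tested. The points of the 2 media lie closest for resting T cell and cholesterol genes, with medians of -0.77 and -1.02, and -0.81 and -1.16, and far apart for effector cytokine genes at 0.67 and 3.55.

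Among adhesion genes, 1 integrin chain gene fell and another rose alike in both media. Of 18 tested adhesion genes 14 were lower and 4 higher (6 and 5 under the median of ratios), with 4 and 1 similar. Over all tested genes 63.1% were lower and 34.3% higher, with 13.1% and 5.13% similar. Itgb7 (ENSMUSG00000001281), the integrin beta chain of gut homing, was at 22036, 24664 and 24984 in unconditioned, 9223, 9099.6 and 9958 in stromal and 8079.7, 8045 and 9625 in adipocyte medium. The media overlapped far below the unconditioned samples, and the fall was stable to scaling (pooled change -1.41, SE 0.08, limma adjusted p = 7.13e-08). Its partner chain gene Itgae fell by 1.12, more in stromal (-1.44) than in adipocyte medium (-0.80). Itgb3, the beta chain of the vitronectin receptor, rose instead, from 4776, 4561 and 3989 to 10316, 10286 and 11016 in stromal and 10477, 9259 and 8870.1 in adipocyte medium, and this was stable to scaling.

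Of 15 tested cytoskeleton genes, from a list of 79, 5 were higher and 9 lower under the deposited scaling, and 3 and 2 of these changed similarly. Under the median of ratios 6 were higher and 2 lower. The pooled split under the deposited scaling is near that of all tested genes (34.3% higher and 63.1% lower), so nothing is read from it. The title of the series names the cytoskeleton. Lmna, for the lamins of the nuclear envelope, rose by 1.42, from 573, 542 and 374 to 1174, 1375 and 1172 in stromal and 1503, 1174 and 1517 in adipocyte medium. Vcl, for the focal adhesion protein vinculin, was at 0.82 in stromal and 0.92 in adipocyte medium, and Marcksl1, an actin regulator gene, at 1.41 and 0.82, both stable to scaling. Rac2, the GTPase gene of blood cells, fell by 0.83 and Kif21b, a kinesin gene, by 1.03. Rac2 stood at 39271, 42797 and 42701 in unconditioned, 25235, 27826 and 27066 in stromal and 21143, 20422 and 20002 in adipocyte medium. Under the median of ratios its change was -0.19 and did not pass the threshold.

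At the T cell receptor, Cd3e (ENSMUSG00000032093) went from the values above to 22698, 24552 and 23053 in stromal and 15253, 15178 and 16452 in adipocyte medium. The 3 groups did not overlap, and the pooled change was -0.90 (SE 0.07, limma adjusted p = 2.61e-07). It was -0.61 in stromal and -1.19 in adipocyte medium, near the limit on the ratio of the 2 changes. Dgkz, for a diacylglycerol kinase that damps receptor signals, fell by 0.76. Cd8a and Cd8b1 did not change similarly, at -2.14 and -1.54 in adipocyte against 0.30 and -0.12 in stromal medium. Id3, a regulator of lymphocyte fate, fell by 0.83 and Rxra, a nuclear receptor gene, by 0.96. Cd3e and Rxra were stable to scaling, though the median of ratios brought their pooled changes to -0.26 and -0.32. Under that scaling the changes of Dgkz (-0.12) and Id3 (-0.19) did not pass the threshold.

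The largest similar falls, by the same limit on level, were in genes of varied function. Tmem35b (ENSMUSG00000070737), whose exons overlap those of Zmym6 on the same strand, led with 504, 633 and 675 in unconditioned, 136, 137 and 140.1 in stromal and 109, 106 and 105 in adipocyte medium. The spread within each conditioned group was small, and the pooled change was -2.30 (SE 0.14, limma adjusted p = 1e-07). Slc25a35, a mitochondrial carrier gene that overlaps Rangrf on the opposite strand, was at -2.20 with a difference of 0.12 (-0.37 to 0.61). Cacna2d4, a calcium channel subunit gene, fell by 2.10, and Mettl27 and Izumo4 by 1.91 and 1.77. Slc35d2, a nucleotide sugar transporter gene, showed closely equal values, from 1281, 1591 and 1519 to 409.8, 404 and 479 in stromal and 394, 412 and 424 in adipocyte medium, with a difference of -0.07 (-0.33 to 0.19).

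Sema4f, a semaphorin gene, was as even, at -1.77 in stromal and -1.72 in adipocyte medium. The oxidoreductase gene Dhrs7 fell by 1.72, the kynurenine pathway gene Haao by 1.68, the lysosomal arylsulfatase gene Arsb by 1.67 and the zinc finger gene Zscan10 by 1.66. Of the 12 largest similar falls above that level, Dapl1 included, 9 were stable to scaling, and Slc25a35, Haao and Arsb were not. Of the 12 largest rises, Stat5a, Cd274 and Tgtp2 included, 4 were stable, namely Tgtp2, Neto2, Rnf19b and Srrt.

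Not every large change in both media could be called similar. Il22, the cytokine gene of barrier defence, was at 2.86, 3.48 and 0.886 in unconditioned, 41.7, 33.6 and 93.4 in stromal and 84.9, 79.2 and 67.4 in adipocyte medium. All 6 conditioned samples were far above the unconditioned ones, with a pooled change of 4.31 (SE 0.40, limma adjusted p = 9.9e-07). The interval of the difference was -0.42 to 1.59, wider than 2-fold. In all 62 genes passed the pooled test, did not differ between the media past the threshold and were still not similar. Of the 22 tested effector cytokine genes, Il22 included, 20 were higher in the pooled comparison and 0 similar, with a median of 0.67 in stromal and 3.55 in adipocyte medium.

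Of the early activation genes 29 of 30 were higher and 1 similar (Irf8), and of the NF-kB genes 11 of 12 were higher and 0 similar. For these and the effector cytokine genes the shares over all tested genes were 34.3% higher and 5.13% similar and higher. Nr4a1, an immediate target of receptor signals, was at 27735, 24699 and 26713 in unconditioned, 21896, 29548 and 23226 in stromal and 133265, 76974 and 147124 in adipocyte medium. Its stromal samples overlapped the unconditioned ones, and the pooled change of 1.01 lay between a stromal value of -0.09 and an adipocyte value of 2.12. The lipid droplet gene Plin2 was likewise at 0.10 in stromal and 2.36 in adipocyte medium. Of 22 cell cycle genes 19 were lower (8 under the median of ratios), against 63.1% of all tested genes, with a median of -0.16 in stromal and -1.48 in adipocyte medium, and the only similar member was Cdkn1a.

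Opposite responses hid in the pooled comparison. Klf11, a transcription factor gene, was at 1144, 1148 and 1278 in unconditioned, 570.1, 567 and 549.6 in stromal and 6019, 5685 and 5919.6 in adipocyte medium. Its media differed by 3.38 (3.21 to 3.56), whereas its pooled change was 0.61. Dusp8, a phosphatase gene of stress kinases, was at -1.55 in stromal and 2.72 in adipocyte medium, Dtx4, a Notch-related ubiquitin ligase gene, at -1.21 and 1.91, and Scaper at -2.38 and 0.70. Klrb1f, a lectin-like receptor gene, went the other way, with 139, 118 and 102 in unconditioned, 2037, 910.2 and 1279 in stromal and 41.7, 59.4 and 28.3 in adipocyte medium. Carbonic anhydrase gene Car1, with 1.47 in stromal and -1.70 in adipocyte medium, had a pooled change of -0.12 (limma adjusted p = 0.721). In a fit of 2 groups, where the difference between media counts as spread, 1270 genes (44.3%) passed, 423 higher and 847 lower. All 523 similar genes were among them, as were 747 others.

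Summed markers of B cells and myeloid cells were lower in adipocyte samples, while stromal samples overlapped the unconditioned ones. Members of these lists can thus count as lower in the pooled comparison through adipocyte medium alone. The 11 B cell markers in the table summed to 10768 to 14062 normalized counts in unconditioned, 11233 to 16939.6 in stromal and 3981 to 5487 in adipocyte samples, and 0 of them fell similarly. The 9 macrophage and monocyte markers summed to 4038 to 8013, 4160.0 to 9722 and 732 to 1212. Lyz2, a lysozyme gene whose reads may be split with a near copy, showed the pattern at 0.11 in stromal and -4.04 in adipocyte medium. The 8 dendritic cell markers summed to 1282 to 1421, 1299 to 1486 and 601 to 672, and the 7 neutrophil markers to 1903 to 2794, 1861 to 3315 and 311 to 1027. Those of these 4 lists that changed similarly were Fcgr3, an Fc receptor gene of macrophages and natural killer cells, at -1.03 in stromal and -1.32 in adipocyte medium, and Xcr1, a dendritic cell receptor gene, at 1.31 and 1.54. The natural killer markers summed to 2359.6 to 2561, 944 to 1139.9 and 1476 to 2894. The 2 erythroid markers in the table, Car1 and the transferrin receptor gene Tfrc, summed to 2338 to 2478, 4068 to 5229 and 3813 to 5223, with all 6 conditioned samples above the unconditioned ones. Tfrc, which dividing and activated T cells also express, was similar at 0.78 in stromal and 1.09 in adipocyte medium. The 6 T cell markers summed to 115525 to 128248, 99169 to 102444 and 49529 to 50919. Of 14 adipocyte markers only Lpl is listed. It went opposite ways, at 1.87 in stromal and -4.05 in adipocyte medium, and its pooled change of -1.09 did not pass the threshold. Its counts were low, at 28.6 to 105, 156 to 193 and 0 to 12.7. Of 15 stromal markers only Vim is listed, which was lower. What part such cells had in the pooled changes was not tested.

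The rule for similar genes asks for a like change in both media, and the authors' selection and clusters rest on the same samples. The shares of similar genes that follow thus come in part from the rule, and nothing is read from them. The authors' deposited table for adipocyte medium lists 458 of the 523 (87.6%, against 92.1% of all tested genes), and the authors' deposited table for stromal medium 233 (44.6%, against 16.5%). The authors' deposited cluster numbers split them unevenly. Cluster 3, whose 222 tested genes had a median of -1.22 in stromal and -0.79 in adipocyte medium, held 133 similar genes (59.9%). Cluster 2, with 1611 genes and medians of -0.36 and -1.38, held 243 (15.1%). The higher ones were 130 of the 913 genes of cluster 1 and 17 of the 122 of cluster 4. Similar higher genes were read at a median of 2717 normalized counts and similar lower genes at 967, against 920.3 over all tested genes. Genes called higher without being similar were at 2201.9, and those called lower at 691.1, so much of this level goes with direction. A wide interval, as genes with few reads have, keeps a gene from meeting the rule. Gene spans in the GENCODE M21 annotation had medians of 20.3 kb (similar higher) and 22.2 kb (similar lower), against 19.2 kb over all tested genes. The called genes that were not similar had 23.8 kb (higher) and 16.7 kb (lower).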

How the data were processed

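RNA of the 9 samples was made into SMART-seq v4 and Nextera XT libraries, per the labels' protocols. The authors deposited a table of normalized signal per gene. Reads recovered from its steps were whole within 0.001 for 100% of values, so the signal is a read count divided by 1 size factor per sample. The authors' deposited comparison tables give log2 fold changes, p-values, standard errors and Wald statistics as a score column. The authors' cluster number is also deposited as a score. FastQC, Trimmomatic, featureCounts and DESeq2 and the builds GRCm39, GRCh38 and hg38 are named without roles per the submitters' processing notes. Which aligner, annotation and strand setting were used is not given in these sources.

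The main test was limma 3.58.1 (R 4.3.3) with its trend option on log2(value + 1), with 3 groups, leaving out genes with a mean under 1, because the files hold normalized values. A 5% false discovery rate (Benjamini-Hochberg adjusted p of 0.05) was the threshold, two-sided. The recovered reads were tested with edgeR 4.0.16 and DESeq2 1.42.0 as alternatives, and other scalings, pseudocounts, filters, margins and left-out samples were tried. The limma script was tested on simulated data. The labels give mouse numbers, so samples of the same number come from the same animal. Deviations from group means correlated between samples of a mouse at -0.12 to 0.26 over 9 pairs. Nothing in the labels says that the media of different mice were separate batches, and p-values measure the spread between these samples.

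Named genes were the 12 largest similar rises and falls above the lowest 25% in mean level with 1 sign in all 6 within-mouse differences, up to 3 similar members per list by adjusted p, the 4 largest differences of opposite sign each way, and a few fixed markers. Unnamed gene models and receptor segments were left out. Members and lists were chosen with earlier results of these data known.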

Additional observations from a re-analysis of the deposited data

Results flagged for a closer look

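S1pr1 was marked because 1 of the 6 conditioned samples lay far from the rest. Adipocyte sample 3 was at 66509 normalized counts, and its gap to the next sample was 0.663 of the whole range, above the critical value of Dixon's test for 6 samples. Chance marks about 1 in 20 such groups. Without adipocyte sample 3 the pooled change of S1pr1 was -1.12 (limma adjusted p = 6.46e-07), against -0.99 with it.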

How the results depend on the processing

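A fit of 2 groups left 1270 genes in the pooled comparison, and 11 named genes, none of them similar, missed the threshold there: Gbp2 (limma adjusted p = 0.0724), Plin2 (0.112), Nr4a1 (0.173), Klf2 (0.158), Lyz2 (0.160), Klrb1f, Klf11, Dusp8, Dtx4, Scd2 and Scaper (0.371 to 0.695). Median of ratios scaling left 68 similar higher genes, 38 of them shared with the 147. A margin of 1.5-fold left 60 higher and 158 lower, and no limit on the ratio of the media changes gave 318 and 568. With mouse as a replicate block, the counts were 2811 in the pooled comparison, 153 similar higher, 380 similar lower and 2619 between the media, and the block changed no call of the 74 named genes. Leaving out 1 sample gave 2715 to 2800 genes in the pooled comparison, 128 to 153 similar higher, 336 to 379 similar lower and 2531 to 2599 between the media. Leaving out 1 mouse gave 2708 to 2726, 116 to 142, 307 to 371 and 2452 to 2539. Car1, not past the threshold at -0.12, turned to 0.52 under the median of ratios and 0.18 under TMM. It also, over the samples left out in turn, ran from -0.35 without unconditioned replicate 1 to 0.10, turning to 0.02 without unconditioned replicate 3, 0.10 without stromal replicate 1, 0.01 without adipocyte replicate 1 and 0.0010 without mouse 1. Klf2 turned to 0.12 under the median of ratios (limma adjusted p = 0.373) and missed the threshold under TMM (0.0656). Dgkz, Id3, Rac2, S1pr1, Scd2 and Scaper missed the threshold under that scaling. Dusp8 and Dtx4 missed it without unconditioned replicate 2, at limma adjusted p of 0.0604 and 0.0669, and Dtx4 without mouse 2, at 0.0521. The cause was not tested. Over 22 settings of the named genes, 1600 values kept direction and call, 21 lost the call and 7 reversed. With only 3 mice and a gene table selected for change, genes with a small like change cannot be seen.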

Other observations

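Some gene groups were seen to move together only when the values were read, so their counts are descriptions with no test. All 9 tested Pig genes, which encode enzymes of the GPI anchor that holds proteins on the cell surface, were lower in the pooled comparison, with a median of -1.05 and a range of -1.42 to -0.72. Of these, 5 changed similarly and 1 was stable to scaling. All 15 tested Ift and Bbs genes, of intraflagellar transport and the BBSome, were lower too, from -2.45 to -0.45 with a median of -1.18. Among these 15, 6 changed similarly and 2 were stable to scaling. In stromal medium alone 5 of the 15 were above 0 (Ift22, Ift27, Ift46, Ift74 and Ift80), and under the median of ratios the pooled changes of 4 were above 0, Ift27 at 0.19, Ift46 at 0.13, Ift74 at 0.10 and Ift80 at 0.16. Of the Pig genes Pigt was above 0 in stromal medium, at 0.10, and none was under the median of ratios. Over all tested genes 63.1% were lower, 13.1% were similar and lower, and 4.99% were similar, lower and stable to scaling.

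Among small families some pairs had like values, and the Gimap pair did not. The interferon-inducible GTPase genes Gvin1 and Gvin2 were higher by 1.05 and 1.08, and the helicase genes Recql and Recql5 were lower, at -1.30 and -1.27. All 4 were stable to scaling. The channel-like genes Tmc6 and Tmc8 were lower at -1.24 and -1.22, and changed similarly under the deposited scaling. Gimap9 was similar, at 1.14 in stromal and 0.63 in adipocyte medium, whereas Gimap6 was not, at -0.01 and 1.06.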
